A study of Mus musculus with 6 samples.

Results

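Macrophages take up arginine and spend it along competing routes, and 10 genes of these routes were followed here in macrophages sorted from the colon. They are Slc7a1 and Slc7a2 (cationic amino acid transporters), Arg1 and Arg2 (arginases), Nos2 (inducible nitric oxide synthase), Ass1 and Asl (enzymes that return citrulline to arginine), and Odc1, Srm and Sat1 (enzymes that make or acetylate polyamines). The genes were chosen by name, with the difference between the groups in these same libraries already known, so their values between the groups are given as a description with no p-value, and the calls of the fit over the whole table are counted once for reference and support nothing. They are 10 of the 25124 gene rows of the expression table.

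There were 3 wild type libraries and 3 libraries from transgenic mice with macrophage-specific overexpression of E4BP4 (the product of Nfil3), a transcription factor of the bZIP family. All mice were C57BL/6, 8 weeks old, and all had dextran sulfate sodium (DSS), which injures the colonic epithelium, at 2.0% in their water during 7 days, then 7 days of recovery without it before collection on day 14. The comparison is therefore between genotypes within recovery from colitis, and no untreated colon is part of it. The promoter that drives the transgene is not given in the sources used here. The genotype field of transgenic replicates 2 and 3 has another final digit in the factor's name, and the titles, which name E4BP4 for all 3, were followed. Whether each library is a different mouse is not stated, and p-values then reflect the spread of these libraries alone, which may be technical.

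Arginase splits arginine into urea and ornithine, and ornithine decarboxylase turns ornithine into putrescine, the first polyamine. Spermidine synthase lengthens putrescine to spermidine, and spermidine/spermine acetyltransferase marks polyamines for export or breakdown. Nitric oxide synthase draws on the same arginine and leaves citrulline, which argininosuccinate synthase and argininosuccinate lyase rebuild into arginine. Arg1 is widely used as a marker of macrophages exposed to interleukin-4 or interleukin-13, and Nos2 of macrophages exposed to interferon-gamma and bacterial products.

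RefSeq promoter windows (GRCm38.p6, from 250 bases before to 50 bases after a start site) were found for 4 of the 10 genes, in 5 windows. Of these, 3 are shown, each with the start site of the row whose level is given: Ass1 and Odc1, which were lower in transgenic libraries, and Sat1, which was higher. The windows are chr2:31470020-31470319 on the plus strand (Ass1), chr12:17544623-17544922 on the plus strand (Odc1) and chrX:155216400-155216699 on the minus strand (Sat1), each written 5′ to 3′ on the gene's strand. Capitals mark matches to the motifs named after them, on either strand.
Ass1: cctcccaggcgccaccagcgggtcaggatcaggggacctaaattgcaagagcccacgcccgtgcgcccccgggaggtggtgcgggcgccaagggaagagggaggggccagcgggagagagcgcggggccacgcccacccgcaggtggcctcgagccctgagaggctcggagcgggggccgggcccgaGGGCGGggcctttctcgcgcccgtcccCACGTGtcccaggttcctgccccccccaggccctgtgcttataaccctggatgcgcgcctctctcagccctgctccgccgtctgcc
Odc1: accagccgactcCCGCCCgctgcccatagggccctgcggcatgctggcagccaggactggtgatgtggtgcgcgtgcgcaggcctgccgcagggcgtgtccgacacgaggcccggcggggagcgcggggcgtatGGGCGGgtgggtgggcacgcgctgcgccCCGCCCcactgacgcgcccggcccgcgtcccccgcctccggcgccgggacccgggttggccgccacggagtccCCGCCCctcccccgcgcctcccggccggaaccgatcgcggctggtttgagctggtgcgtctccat
Sat1: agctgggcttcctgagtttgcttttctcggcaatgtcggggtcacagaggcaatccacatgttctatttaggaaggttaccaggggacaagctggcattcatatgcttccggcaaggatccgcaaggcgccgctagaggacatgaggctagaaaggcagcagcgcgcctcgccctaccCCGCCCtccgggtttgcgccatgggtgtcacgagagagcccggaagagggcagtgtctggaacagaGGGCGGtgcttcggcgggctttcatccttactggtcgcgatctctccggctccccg

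E4BP4 binds D-box elements, searched here as TTACGTAA and TTATGTAA on both strands, which occur in 0.119% and 0.938% of 32851 windows of the same length. None of the 5 windows, which belong to Ass1, Slc7a1, Odc1 and Sat1, held these letters. Arg1, Arg2, Nos2, Asl, Srm and Slc7a2 had no window and were not searched. The Ass1 window held the E-box CACGTG from 36 bases before the start, a motif found in 7.15% of all windows. That E-box contains the core ACGTG on both strands, which 19.6% of windows hold. The GC box GGGCGG, found in 35.7% of windows, occurred 4 times in the Odc1 window and 2 times in the Sat1 window, and 1 time in that of Ass1. A match describes the letters of a window and is not a measured binding site.

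Levels are TPM, transcript abundance scaled for transcript length and library depth, counted over exons. On this length-corrected scale the wild type order was Sat1, Arg1, Odc1, Nos2, Srm and Asl, Arg2 and Ass1, Slc7a1 and Slc7a2, from 505 TPM down to 2.54 TPM. Srm and Asl, both at 25.5 TPM, and Arg2 and Ass1, at 13.6 and 13.4 TPM, did not differ beyond the spread of their libraries. In transgenic libraries the order was Sat1, Odc1, Asl, Arg1, Srm, Nos2, Ass1, Arg2, Slc7a1 and Slc7a2. There Arg1 overlapped Asl above it and Srm below it. Arg1 stood between Sat1 and Odc1 in all wild type libraries and below Odc1 in all transgenic ones. Although the ranges overlapped, Arg1 was above Srm within each transgenic library. The order of Arg1 against Asl changed between transgenic libraries and was not resolved.

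Of the 10 genes, 9 were lower in transgenic libraries and Sat1 was higher, and the 3 values of a group never overlapped those of the other. Over the whole table, groups did not overlap with the transgenic values lower for 22.3% of 12633 tested genes, and with them higher for 17.1%. All 10 genes passed the filter on low values, a group mean of 1 TPM or more. By the test across all genes (limma, adjusted p below 0.05) 9 were called lower, where 13.2% of tested genes were, and 1 was called higher, where 8.71% were. These counts follow from how the genes were chosen and nothing is read from them. The median log2 difference of the 10 genes was −0.52, beside −0.01 over all tested genes. In 11 of 14 alternative settings the call of Asl, of Slc7a1 or of both was lost.

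**Figure D1:**
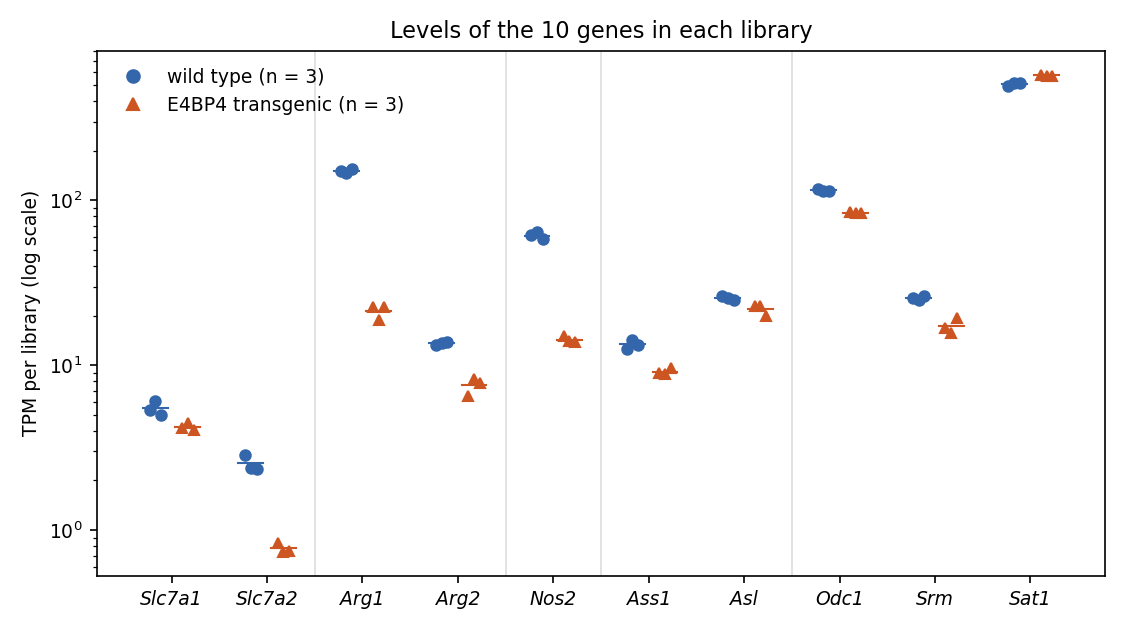
TPM of the 10 genes in each library on a log axis, ordered by role (uptake, arginases, nitric oxide synthase, citrulline recycling, polyamines); circles are wild type, triangles transgenic, and bars the means of 3 libraries. The gap between the groups is widest for Arg1, from 151 to 21.3 TPM, and Sat1 is the gene that is higher in transgenic libraries, at 573 against 505 TPM.

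Uptake is described first. Slc7a1 encodes CAT1, the broadly expressed cationic amino acid transporter, and its row (NM_001301424, chr5:148327410-148392815, minus strand, mm10) was at 5.34, 6.06 and 5.01 TPM in wild type against 4.16, 4.44 and 4.04 TPM in transgenic libraries. Each wild type library lay above each transgenic one, by less than 1 TPM for the nearest pair. The means were 5.47 ± 0.534 and 4.21 ± 0.209 TPM (SD, n = 3 a group), a 1.30-fold difference. On the log2(TPM + 1) scale, which understates differences of low genes, the difference (transgenic minus wild type, as throughout) was −0.31 ± 0.091 (SE), and −0.18 with a pseudocount of 5.

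Slc7a2 encodes the CAT2 transporters, which are inducible in macrophages. Its row (NM_001044740, chr8:40862367-40922070, plus strand) was at 2.87, 2.39 and 2.36 TPM in wild type against 0.840, 0.739 and 0.752 TPM in transgenic libraries. Every transgenic library was thus below 1 TPM and every wild type library above 2 TPM. The means, 2.54 ± 0.286 and 0.777 ± 0.055 TPM (SD, n = 3 a group), differed 3.27-fold. Over the 6 libraries together this is the least deeply read of the 10 genes, with 736 reads over the wild type and 232 over the transgenic libraries. The log2 difference was −0.99 ± 0.122 (SE), and its size depended on the scale: it was −1.59 with a pseudocount of 0.1, −0.38 with a pseudocount of 5, and −1.69 by voom on recovered reads. Exons of the long noncoding RNA Gm26584 share 635 bases with Slc7a2 on the opposite strand, and the library kit is not described as keeping strand.

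The ratio of Slc7a1 to Slc7a2 within a library was 1.86, 2.53 and 2.12 in wild type against 4.95, 6.01 and 5.37 in transgenic libraries. Slc7a1 was the more abundant transporter in all 6 libraries, by a wider margin in the transgenic ones.

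Arg1, the cytosolic arginase (NM_007482, chr10:24915207-24927470, minus strand), was at 151, 147 and 154 TPM in wild type against 22.4, 18.8 and 22.6 TPM in transgenic libraries. The groups were far apart compared with the spread inside them. The means were 151 ± 3.49 and 21.3 ± 2.14 TPM (SD, n = 3 a group), a 7.09-fold difference, and the log2 difference was −2.77 ± 0.067 (SE). It had the second lowest log2 difference of the 12633 tested genes. The values rest on 8326 wild type and 1211 transgenic reads.

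Arg2, the mitochondrial arginase (NM_009705, chr12:79130788-79156301, plus strand), was at 13.4, 13.7 and 13.8 TPM in wild type against 6.55, 8.27 and 7.81 TPM in transgenic libraries. The means of 13.6 ± 0.227 and 7.54 ± 0.890 TPM (SD, n = 3 a group) differed 1.80-fold, with a log2 difference of −0.78 ± 0.084 (SE). The wild type libraries lay closer together, with a coefficient of variation of 1.67%, than the 6.45% that counting error alone gives for their reads, so their spread understates the error. Exons of Arg2 share 285 bases with Vti1b and 116 with Gm48780, both on the opposite strand. Vti1b, which encodes a SNARE protein of vesicle fusion, was at 54.4 ± 2.59 TPM in wild type against 50.2 ± 1.54 TPM in transgenic libraries (SD, n = 3 a group), and reads of the 2 genes in the shared bases cannot be told apart if strand was not kept.

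Arg1 made up 91.9%, 91.5% and 91.8% of the arginase TPM in wild type libraries and 77.4%, 69.5% and 74.3% in transgenic ones. The ratio of Arg1 to Arg2 was 11.1 ± 0.326 in wild type against 2.86 ± 0.576 in transgenic libraries (SD, n = 3 a group). Arg1 remained the more abundant arginase transcript in all 6 libraries.

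Nos2 (NM_001313922, chr11:78925291-78960226, plus strand), the nitric oxide synthase that macrophages induce, was at 61.2, 64.0 and 58.2 TPM in wild type against 14.9, 14.1 and 13.8 TPM in transgenic libraries. The means, 61.2 ± 2.92 and 14.3 ± 0.592 TPM (SD, n = 3 a group), differed 4.28-fold, and the log2 difference was −2.02 ± 0.051 (SE). Of all tested genes, 9 had a lower log2 difference. Arg1 and Nos2, often set against each other as markers of opposite macrophage states, were thus both lower in the same libraries.

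The 2 genes did not differ in proportion: the ratio of Arg1 to Nos2 was 2.47, 2.30 and 2.65 in wild type against 1.50, 1.34 and 1.63 in transgenic libraries, with no overlap. Arg1 exceeded Nos2 in all 6 libraries.

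Ass1, argininosuccinate synthase, is the step that limits citrulline recycling. Its row (NM_007494, chr2:31470270-31520670, plus strand), whose promoter window with the E-box is printed above, was at 12.6, 14.3 and 13.3 TPM in wild type against 9.02, 8.83 and 9.57 TPM in transgenic libraries. The means of 13.4 ± 0.874 and 9.14 ± 0.384 TPM (SD, n = 3 a group) differed 1.47-fold, with a log2 difference of −0.50 ± 0.068 (SE). The ratio of Nos2 to Ass1 was 4.58 ± 0.265 in wild type against 1.57 ± 0.109 in transgenic libraries (SD, n = 3 a group).

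Asl, argininosuccinate lyase (NM_133768, chr5:130011258-130024381, minus strand), showed the smallest of the lower values. It was at 26.2, 25.4 and 24.8 TPM in wild type against 22.9, 22.9 and 19.9 TPM in transgenic libraries. The lowest wild type and highest transgenic libraries were less than 2 TPM apart. The means were 25.5 ± 0.705 and 21.9 ± 1.72 TPM (SD, n = 3 a group), and the log2 difference was −0.21 ± 0.062 (SE). The ratio of Asl to Ass1, 1.91 ± 0.158 against 2.41 ± 0.281 (SD, n = 3 a group), overlapped between the groups.

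Odc1, ornithine decarboxylase, commits ornithine to polyamine synthesis. Its row (NM_013614, chr12:17544873-17551502, plus strand), with the GC boxes of the window printed above, was at 116, 113 and 114 TPM in wild type against 85.1, 83.4 and 83.3 TPM in transgenic libraries. The libraries of each group lay within 3 TPM of each other. The means of 115 ± 1.53 and 83.9 ± 1.01 TPM (SD, n = 3 a group) differed 1.37-fold, and the log2 difference was −0.45 ± 0.026 (SE).

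Srm, spermidine synthase (NM_009272, chr4:148591513-148594619, plus strand), was at 25.5, 24.8 and 26.2 TPM in wild type against 16.8, 15.6 and 19.3 TPM in transgenic libraries. The means of 25.5 ± 0.695 and 17.2 ± 1.88 TPM (SD, n = 3 a group) differed 1.48-fold, with a log2 difference of −0.54 ± 0.075 (SE). The ratio of Odc1 to Srm was 4.50 ± 0.118 in wild type against 4.91 ± 0.528 in transgenic libraries (SD, n = 3 a group) and overlapped between the groups.

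Sat1, spermidine/spermine acetyltransferase (NM_009121, chrX:155213126-155216449, minus strand), acts in the direction opposite to synthesis. It was the most abundant of the 10 genes, above 99.0% of tested genes in wild type, at 492, 511 and 512 TPM there and 578, 570 and 570 TPM in transgenic libraries. All transgenic libraries were above all wild type ones. The means of 505 ± 11.2 and 573 ± 4.59 TPM (SD, n = 3 a group) differed 1.13-fold, and the log2 difference was 0.18 ± 0.020 (SE). The ratio of Sat1 to Odc1 was 4.23, 4.51 and 4.48 in wild type against 6.79, 6.84 and 6.84 in transgenic libraries, again with no overlap.

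**Figure D2:**
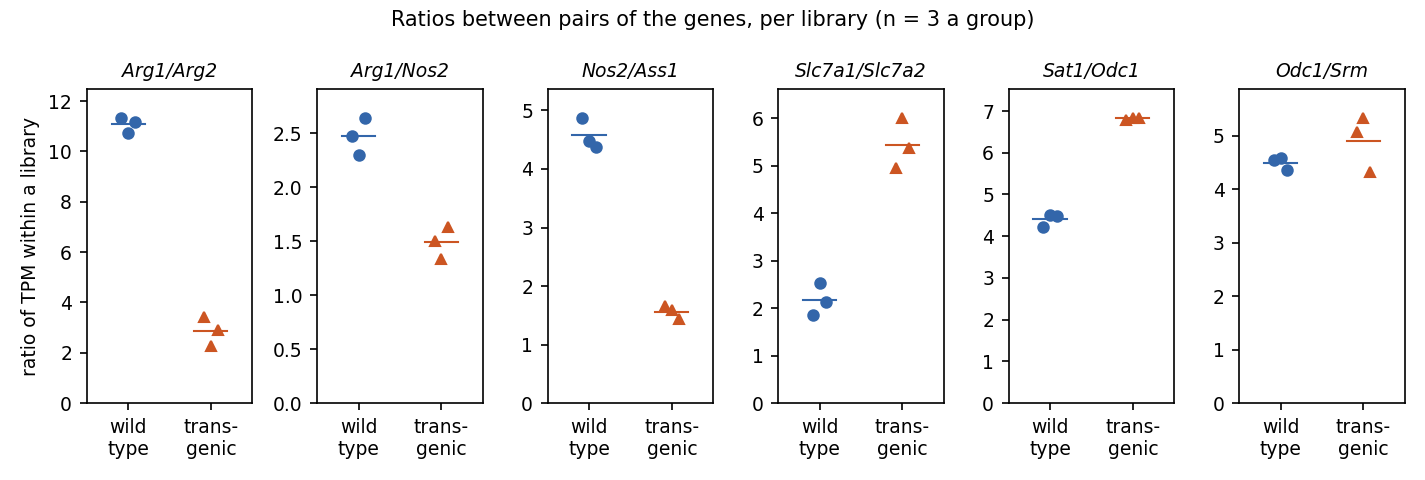
Ratios of TPM between pairs of the genes within each library, from 0 on each axis; circles are wild type, triangles transgenic, and bars the means of 3 libraries. Arg1/Arg2, Arg1/Nos2 and Nos2/Ass1 are lower and Slc7a1/Slc7a2 and Sat1/Odc1 higher in transgenic libraries, while Odc1/Srm overlaps, at 4.50 ± 0.118 against 4.91 ± 0.528.

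The spread between libraries of a group was compared with counting error for these genes. In 9 of the 20 pairs of a gene and a group it was below what counting error alone gives. An SD of 3 libraries is itself imprecise, so this count cannot show that the spread was unusually small. Over the whole table, chi-square over degrees of freedom for pairs within groups was 2.06 to 2.75, above counting error. The SD values above carry the error of 3 libraries and not necessarily that of separate mice.

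A second measure, counted over the gene span with introns, comes from the authors' comparison of the same libraries and is no independent replicate. In the authors' deposited table the log2 fold change was −2.85 for Arg1, −2.02 for Nos2 and −0.70 for Arg2. The authors' deposited table gave −0.63 for Ass1, −0.27 for Asl, −0.43 for Odc1, −0.62 for Srm and 0.13 for Sat1. For the transporters the authors' deposited table gave −0.38 for Slc7a1 and −1.59 for Slc7a2. All 10 had the same sign as the exon values. That table uses another transcript for Nos2, Slc7a1 and Slc7a2.

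**Figure D3:**
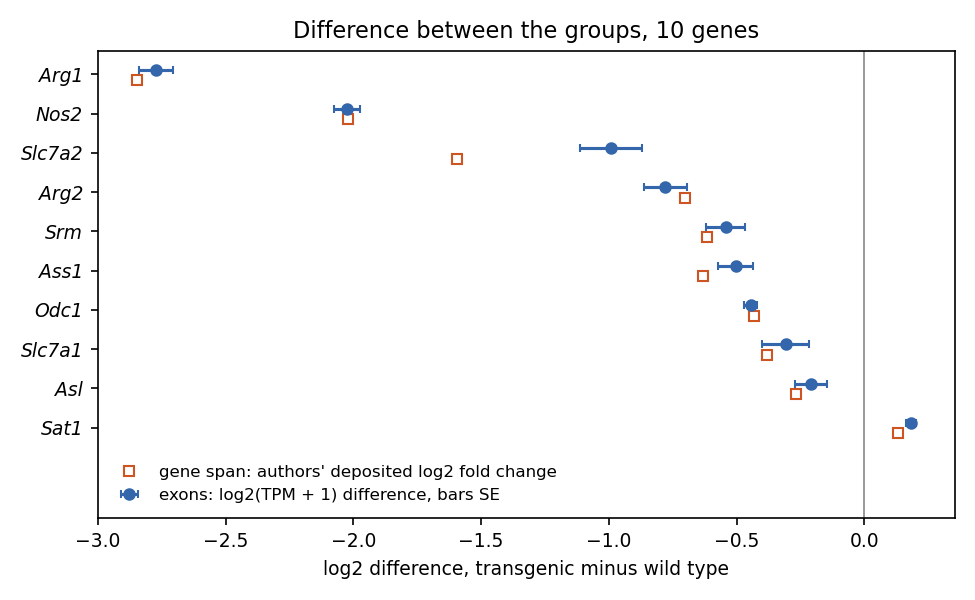
Log2 difference (transgenic minus wild type) of the 10 genes over exons, on log2(TPM + 1) with SE bars (circles, n = 3 against 3), and the log2 fold change in the authors' deposited table over gene spans (squares). Both put Arg1 and Nos2 lowest and Sat1 above 0; they lie farthest apart for Slc7a2, at −0.99 and −1.59, where the exon value is −1.59 with a pseudocount of 0.1.

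The other genes of these routes, 137 names in 8 lists, were then tested; they too were listed with earlier results of these data known. Of 112 that could be tested, 11 rose and 30 fell in transgenic libraries (limma, adjusted p below 0.05 over all genes), with a median log2 difference of −0.07. Of all 12633 genes tested, 1100 rose and 1666 fell. With upper quartile scaling these splits became 14 and 24 in the lists, and 1425 and 1315 in the whole table.

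Of the other arginine transporters, 1 of 7 tested genes rose and 2 fell. Slc7a7 and Slc3a2 form a light and heavy chain pair that exchanges cationic for neutral amino acids. Slc7a7 fell from 61.2 ± 1.23 to 54.2 ± 1.46 TPM (SD, n = 3 a group; log2 difference −0.17, limma adjusted p = 0.0101). Slc3a2 fell from 214 ± 4.49 to 192 ± 3.25 TPM (SD, n = 3 a group; log2 difference −0.16, limma adjusted p = 0.00343). Slc7a4, a poorly characterised relative, rose from 2.08 ± 0.195 to 3.05 ± 0.191 TPM (SD, n = 3 a group; limma adjusted p = 0.0319), but that call was lost without any 1 of the libraries except wild type replicate 3, with no filter and with the replicate block, with an adjusted p up to 0.103.

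Of the urea cycle, ornithine, proline and glutamine genes, 2 of 13 tested rose and none fell by limma at an adjusted p below 0.05, with 1 lower at an unadjusted p below 0.05 and 0 lower by voom. Glul, glutamine synthetase, was at 218, 216 and 218 TPM in wild type against 263, 271 and 265 TPM in transgenic libraries (log2 difference 0.29 ± 0.021 SE, limma adjusted p = 6.07e-05). Gatm, which moves the amidino group of arginine to glycine on the way to creatine, rose from 81.6 ± 3.01 to 98.8 ± 0.996 TPM (SD, n = 3 a group; limma adjusted p = 0.000956). Gatm thus differed in direction from the arginases, which use the same substrate. Oat, ornithine aminotransferase, which sends ornithine toward proline and glutamate, was at 57.2 ± 2.06 and 56.9 ± 0.660 TPM (SD, n = 3 a group; limma adjusted p = 0.910). Got1, the cytosolic aspartate aminotransferase, was at 137 ± 0.923 and 134 ± 1.44 TPM (SD, n = 3 a group; limma adjusted p = 0.321). The enzymes that complete the urea cycle in liver, Cps1 and Otc, were near 0, with means of 0.0433 and 0.207 TPM in wild type against 0.169 and 0.181 TPM in transgenic libraries.

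Of the genes for nitric oxide synthases and their cofactors, 1 of 17 tested rose and 5 fell. The neuronal and endothelial synthases, Nos1 and Nos3, were below 1 TPM, at means of 0.0413 and 0.663 TPM in wild type against 0.050 and 0.356 TPM in transgenic libraries, so of the 3 synthase genes Nos2 alone was above 1 TPM. Gch1, the first enzyme of tetrahydrobiopterin synthesis, fell from 17.2, 15.6 and 14.2 TPM to 12.7, 10.7 and 12.1 TPM (log2 difference −0.37 ± 0.087 SE, limma adjusted p = 0.0195). The call of Gch1 was lost without wild type replicate 1 or 2 or transgenic replicate 2, with an adjusted p up to 0.0622. Por, the cytochrome P450 reductase, fell from 57.7 ± 3.60 to 41.9 ± 3.02 TPM (SD, n = 3 a group; limma adjusted p = 0.00199). Calm3, a gene for calmodulin, which nitric oxide synthase binds, fell (log2 difference −0.32, limma adjusted p = 0.000786), and Calm2 was called higher (log2 difference 0.12, limma adjusted p = 0.0335). The call of Calm2 was lost with no filter and without wild type replicate 1 or 3 or transgenic replicate 2 or 3, and that of Spr, sepiapterin reductase, at −0.22 (limma adjusted p = 0.0399), with no filter, with both scaling alternatives and without any 1 library except transgenic replicate 2.

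Of the genes for nitric oxide sensing and removal, none of 9 tested rose and 5 fell by limma, with 0 higher at an unadjusted p below 0.05 and 0 by voom. Gsr, glutathione reductase, was at 60.1, 60.2 and 59.3 TPM in wild type against 33.9, 30.9 and 33.5 TPM in transgenic libraries (log2 difference −0.85 ± 0.043 SE, limma adjusted p = 1.18e-05). Txnrd1, thioredoxin reductase, fell from 76.5 ± 0.820 to 52.3 ± 1.51 TPM (SD, n = 3 a group; log2 difference −0.54, limma adjusted p = 2.92e-05). Adh5, which reduces S-nitrosoglutathione, was at 47.0 ± 0.836 and 41.9 ± 0.778 TPM (SD, n = 3 a group; limma adjusted p = 0.0140), a call lost without transgenic replicate 2. Txn1, thioredoxin, and Akr1a1, an aldo-keto reductase, had log2 differences of −0.15 and −0.11 (limma adjusted p = 0.0279 and 0.0140); the call of Txn1 was lost with no filter, with upper quartile scaling and without any 1 library except transgenic replicate 2, and that of Akr1a1 with upper quartile scaling and without wild type replicate 2 or transgenic replicate 3.

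Beyond Odc1, Srm and Sat1, 1 of 14 tested polyamine and methionine enzymes rose and 1 fell. Smox, spermine oxidase, which breaks spermine down to spermidine, fell from 98.3, 98.9 and 95.0 TPM to 72.3, 74.2 and 68.3 TPM (log2 difference −0.44 ± 0.037 SE, limma adjusted p = 0.000154). Smox was lower along with Odc1 and Srm, while Sat1, whose product also acts in polyamine breakdown, was higher. Paox, which oxidises acetylated polyamines, was at 18.5 ± 0.950 and 16.4 ± 1.27 TPM (SD, n = 3 a group; limma adjusted p = 0.127). Sms, spermine synthase, was at 1.29 ± 0.193 and 1.62 ± 0.225 TPM (SD, n = 3 a group; limma adjusted p = 0.362). Amd1, S-adenosylmethionine decarboxylase, was at 5.29 ± 0.408 and 5.0 ± 0.573 TPM (SD, n = 3 a group; limma adjusted p = 0.659), and its row spans nearly the same bases as that of Amd2, so the rows are not separate measures. Mat2b and Mat2a, subunits of methionine adenosyltransferase, had log2 differences of 0.19 and 0.05 (limma adjusted p = 0.0324 and 0.393), and the call of Mat2b was lost with no filter and without wild type replicate 1 or 3 or transgenic replicate 2 or 3.

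Of the genes for polyamine control, transport and hypusine, 1 of 11 tested rose and 3 fell. Azin1, the antizyme inhibitor that protects ornithine decarboxylase from degradation, fell from 33.1 ± 0.630 to 26.9 ± 1.40 TPM (SD, n = 3 a group; log2 difference −0.29, limma adjusted p = 0.00407). Oaz1, the antizyme that promotes that degradation, was at 173 ± 5.78 and 169 ± 5.75 TPM (SD, n = 3 a group; limma adjusted p = 0.497). Eif5a, the translation factor that carries the spermidine-derived residue hypusine, fell from 317 ± 4.74 to 282 ± 2.95 TPM (SD, n = 3 a group; limma adjusted p = 0.000848). Dohh, which completes hypusine, had a log2 difference of −0.25 (limma adjusted p = 0.0270), a call lost with upper quartile scaling and without any 1 of the 3 transgenic libraries. Atp13a2, a lysosomal polyamine exporter, was at 121 ± 3.08 and 132 ± 4.18 TPM (SD, n = 3 a group; limma adjusted p = 0.0389), a call lost with no filter and without any 1 library except wild type replicate 1. Of 9 tested genes for arginine methylation none was called higher and 1 was called lower by limma, with 1 higher at an unadjusted p below 0.05 and 0 by voom. That was Prmt6, at 5.22 ± 0.026 and 4.19 ± 0.056 TPM (SD, n = 3 a group, limma adjusted p = 0.0409). The call of Prmt6 held in 2 of 14 alternatives. Prmt1, the most abundant arginine methyltransferase of the list, was at 39.5 ± 2.89 and 36.8 ± 1.02 TPM (SD, n = 3 a group, limma adjusted p = 0.260). Fbxo11, an F-box gene counted in that list and not an established arginine methyltransferase, was at 27.4 ± 0.340 and 25.6 ± 0.462 TPM (SD, n = 3 a group, limma adjusted p = 0.119).

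Of 32 tested genes known as regulators of Arg1 or Nos2, 5 rose and 13 fell. Cebpb, a leucine zipper factor that acts on the Arg1 enhancer, was at 954, 827 and 920 TPM in wild type against 554, 522 and 553 TPM in transgenic libraries (log2 difference −0.73 ± 0.050 SE, limma adjusted p = 5.78e-05). Epas1 and Hif1a, the oxygen-regulated subunits of the hypoxia-inducible factors, fell from 6.70 ± 0.504 to 3.46 ± 0.255 TPM (limma adjusted p = 0.000681, SD, n = 3 a group) and from 67.8 ± 0.874 to 59.3 ± 0.913 TPM (limma adjusted p = 0.00332, SD, n = 3 a group). Irf1, which acts on Nos2 downstream of interferon-gamma, rose while Nos2 was lower. Irf1 was at 110, 107 and 105 TPM in wild type against 146, 149 and 152 TPM in transgenic libraries (log2 difference 0.47 ± 0.028 SE, limma adjusted p = 2.9e-05). Batf3, a leucine zipper factor that is also in the dendritic cell marker list, rose from 36.3 ± 1.41 to 57.3 ± 4.78 TPM (SD, n = 3 a group; limma adjusted p = 0.000279). Of the cytokine signalling inhibitors, Socs1 fell from 8.68 ± 0.946 to 5.76 ± 0.810 TPM and Socs3 from 609 ± 4.61 to 551 ± 12.6 TPM (SD, n = 3 a group; limma adjusted p = 0.0135 and 0.00180). Stat6, which carries the interleukin-4 signal to Arg1, was at 77.9 ± 2.93 and 75.3 ± 3.91 TPM (SD, n = 3 a group; limma adjusted p = 0.492). Nfil3, which encodes E4BP4, was 119 ± 1.40 TPM in wild type against 136 ± 3.99 TPM in transgenic libraries (SD, n = 3 a group, limma adjusted p = 0.00261). That is a 1.14-fold difference, and whether reads of the transgene are counted in this row was not tested.

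**Figure D4:**
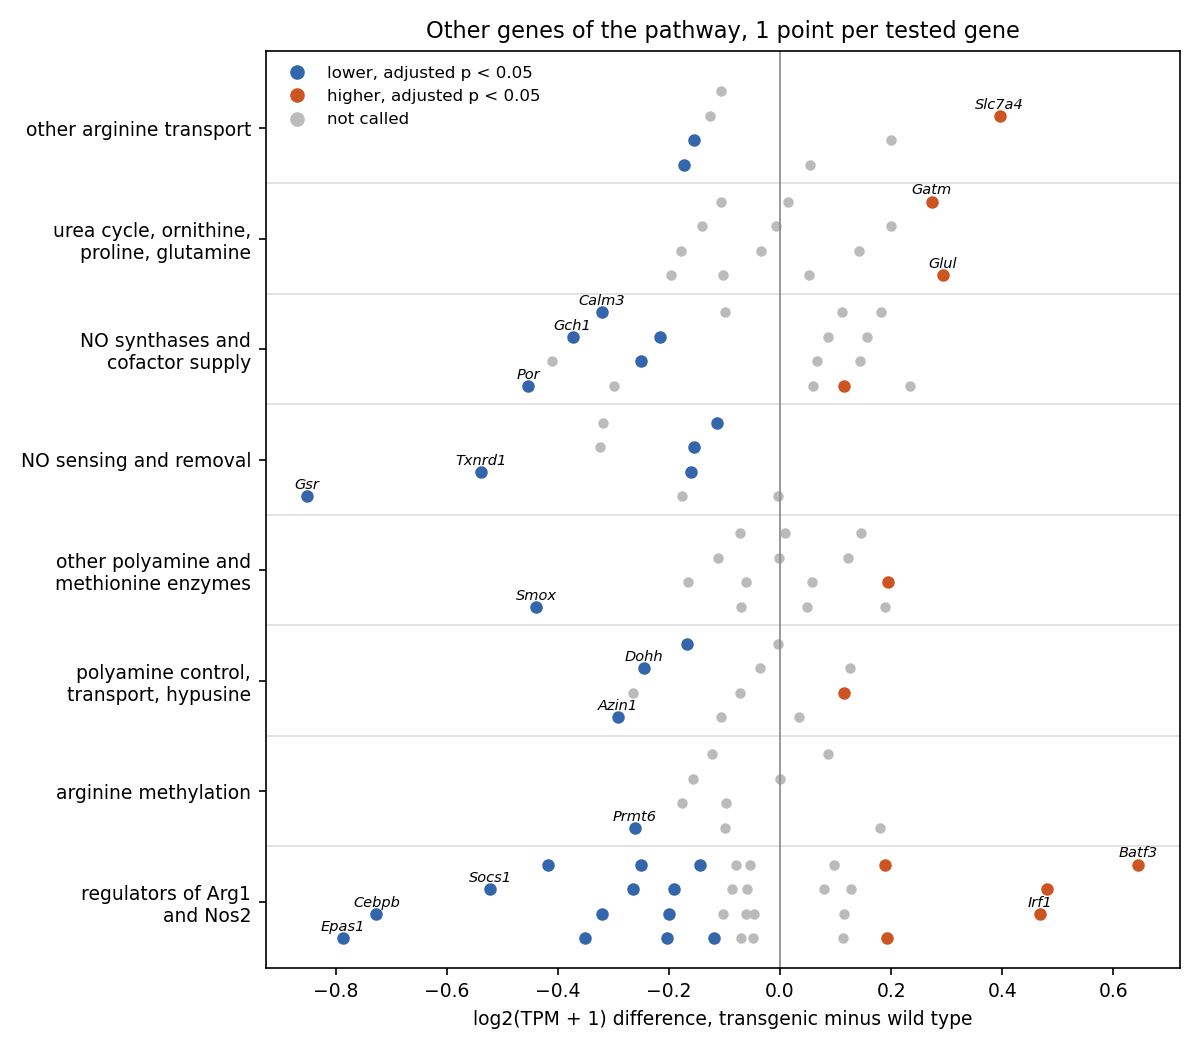
Log2(TPM + 1) difference, transgenic minus wild type, for each tested gene of the 8 lists (1 point a gene, spread vertically within a list for legibility); blue points fell and orange points rose at a limma adjusted p below 0.05, grey points were not called. Gsr, Epas1 and Cebpb lie lowest, at −0.85, −0.79 and −0.73, and Batf3 highest, at 0.64.

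The genes whose profile over the 6 libraries was most like that of Arg1 were sought among 8794 other genes with a group mean of 5 TPM or more, by Euclidean distance on log2(TPM + 1) less the wild type mean. They were Saa3 (an acute-phase serum amyloid), Reg3b (an antimicrobial lectin), Lcn2 (a siderophore-binding protein), Chil3 (a chitinase-like protein of macrophages) and Cxcl3 (a neutrophil chemokine), at distances of 0.295, 0.308, 0.368, 0.485 and 1.13. Saa3 was at 1028 ± 15.0 TPM in wild type against 165 ± 4.59 TPM in transgenic libraries (SD, n = 3 a group), a 6.23-fold difference beside the 7.09-fold of Arg1. The genes most like Nos2 were Hp (haptoglobin), Cxcl3, Reg3g (a lectin akin to Reg3b), Car1 (a carbonic anhydrase abundant in colonocytes) and Mmp8 (a neutrophil collagenase), at distances of 0.236, 0.280, 0.463, 0.759 and 0.760. Hp was at 190 ± 9.89 and 44.9 ± 1.47 TPM (SD, n = 3 a group). Such a ranking over 6 libraries of 2 groups mainly orders genes by the size of the difference between the groups.

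Chil3 and Hp are also in the monocyte marker list, Mmp8 in the neutrophil list and Car1 in the epithelial list, and markers of other cells moved with the groups. In bulk RNA, fewer cells of a type and less RNA per cell cannot be told apart. Macrophage markers were abundant throughout, all 12 above the filter, with a summed level of 17694 to 17861 TPM in wild type against 16990 to 17089 TPM in transgenic libraries; 4 rose and 6 fell. Lyz2 and C1qa led them, at 6670 ± 40.7 and 3232 ± 20.6 TPM in wild type against 5945 ± 38.9 and 3418 ± 44.3 TPM in transgenic libraries (SD, n = 3 a group). Of 14 neutrophil markers, 10 were tested and 7 fell, and their sum was 1026 to 1056 TPM in wild type against 434 to 489 TPM in transgenic libraries. S100a9 and S100a8 led that list, at 439 ± 7.52 and 409 ± 14.3 TPM in wild type against 187 ± 14.4 and 154 ± 15.8 TPM in transgenic libraries (SD, n = 3 a group). Most of the difference in the sum is S100a9 and S100a8. Of the granule genes Mpo, Elane, Camp and Ltf had means below 1 TPM in both groups. Ngp and Mmp8 fell from 8.74 ± 1.48 and 14.2 ± 1.07 TPM to 2.81 ± 0.622 and 3.92 ± 0.543 TPM (SD, n = 3 a group). Csf3r, at 58.9 ± 2.47 and 56.8 ± 1.69 TPM (SD, n = 3 a group), was not called (limma adjusted p = 0.428), nor were Padi4 and Cd177. Of 12 epithelial markers, 11 were tested and 8 fell, with sums of 953 to 958 TPM and 504 to 514 TPM. Car1 and Krt19 led that list, at 497 ± 1.84 and 148 ± 4.88 TPM in wild type against 164 ± 5.20 and 106 ± 8.76 TPM in transgenic libraries (SD, n = 3 a group), and Lgr5 was near 0. Most of the difference in the sum is Car1. Muc2, at 35.9 ± 1.00 and 36.1 ± 0.276 TPM, and Krt18, at 16.8 ± 1.67 and 19.5 ± 1.58 TPM (SD, n = 3 a group), were not called (limma adjusted p = 0.919 and 0.124), nor was Cdh1. Neutrophils can express arginase and Nos2, and colon epithelium Arg2, Ass1, Odc1 and Nos2; the part of these cells in the differences of the 10 genes was not tested.

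Monocyte markers summed to 735 to 772 TPM in wild type against 586 to 597 TPM in transgenic libraries, with 2 of 8 called higher and 4 lower. Most of that difference is Hp, given above, and Chil3, at 69.0 ± 2.75 and 11.1 ± 0.212 TPM (SD, n = 3 a group). Ccr2 rose from 119 ± 1.38 to 143 ± 3.86 TPM and F13a1 from 191 ± 4.59 to 216 ± 1.43 TPM (SD, n = 3 a group). Ly6c2 and Plac8 were not called (limma adjusted p = 0.946 and 0.639). Fibroblast and muscle markers summed to 163 to 165 TPM and 119 to 123 TPM (4 of 9 fell), and endothelial markers to 52.5 to 56.6 TPM and 33.7 to 38.0 TPM (5 of 7 tested fell). Dendritic cell markers summed to 66.3 to 72.3 TPM and 90.1 to 101 TPM (3 of 7 tested rose); most of that difference is Batf3, given above, while Ccr7, the next most abundant, was at 22.0 ± 1.61 and 19.3 ± 0.967 TPM (SD, n = 3 a group). Those of T, NK and innate lymphoid cells summed to 111 to 117 TPM and 122 to 128 TPM (2 of 7 tested rose), of B and plasma cells to 235 to 244 TPM and 251 to 268 TPM (1 of 6 rose and 1 fell), and of eosinophils and mast cells to 10.9 to 13.1 TPM and 19.6 to 21.1 TPM (1 of 5 tested rose), with Epx listed at 0.

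Hypoxia-inducible factors are known to act on Arg1 and Nos2 as well as on genes of the hypoxia response. The listed hypoxia response genes, like the other lists, were chosen with earlier results of these data known. They summed to 1047 to 1062 TPM in wild type against 690 to 693 TPM in transgenic libraries. Of 19 tested, 15 fell by limma, where 13.2% of all tested genes did, and none rose, where 8.71% did. Among the 19, 0 were higher at an unadjusted p below 0.05 and 0 by voom. Highest by their mean over the 6 libraries were Ldha, lactate dehydrogenase A, at 359 ± 2.33 and 263 ± 3.98 TPM, and Ddit4, an inhibitor of mTORC1 signalling, at 88.6 ± 5.40 and 48.1 ± 1.65 TPM (SD, n = 3 a group). Whether this has a part in the lower Arg1 and Nos2 was not tested.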

How the data were processed

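Macrophages from colonic lamina propria were isolated with a cell sorter and polyadenylated RNA was sequenced, per the labels' protocols. Per the submitters' processing notes, bcl2fastq, STAR, HOMER 4.11.1 and DESeq2 were used with the mm10 build; no source used here gives their order or settings. TPM was deposited by the authors for 25124 rows, each 1 RefSeq transcript with its exon length, per the file headers. The columns sum to 543612 to 545319 TPM, which leaves ratios within a library unaffected. A second table deposited by the authors holds log2 values per library over gene spans, log2 fold changes and p-values for 24421 rows. Only its log2 fold changes are printed, and its p-values were not used.

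TPM times exon length gave whole reads, within 0.1 reads, for at least 99.94% of values of up to 1000 reads in each library, and 13973424 to 15063958 reads in genes per library. A count of 0 allows up to 3 reads, for counting error only. No library repeated another: chi-square over degrees of freedom was 2.06 to 2.75 for pairs within groups and 15.0 to 15.9 for pairs across groups.

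The test was limma-trend (limma 3.58.1, R 4.3.3), two-sided, on log2(TPM + 1), with genotype as the single term and all 6 libraries, for genes with a group mean of 1 TPM or more and Benjamini-Hochberg adjusted p below 0.05 over 12633 genes; it was tested on simulated data. A difference on this scale understates that of low genes. The members and the lists were chosen with earlier results of these data known. Named from each list were up to 6 called genes with the largest log2 difference, the 2 with the highest mean, and some by role whatever their p (Cps1, Otc, Oat, Gch1, Nos1, Nos3, Sms, Amd1, Smox, Paox, Oaz1, Azin1, Slc3a2, Slc7a7, Eif5a, Gatm, Nfil3, Hif1a, Stat6, Cebpb and Irf1), and the 5 genes nearest to Arg1 and to Nos2. A few genes under this rule are left out and not reported here. Of the 14 alternatives, 6 left out a library; the others changed the pseudocount, filter, scaling, model or replicate block. Exon overlaps are from GENCODE vM21 (GRCm38).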

Additional observations from a re-analysis of the deposited data

How the results depend on the processing

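Over the 14 alternatives the log2 differences of the 10 genes kept their direction, with Slc7a2 outside the filter of a mean of at least 5 TPM; that of Arg1 ran from −2.83 to −2.57, of Nos2 from −2.09 to −1.78, of Arg2 from −0.85 to −0.57, of Odc1 from −0.46 to −0.41 and of Sat1 from 0.16 to 0.22. Leaving out each library in turn, the whole table held 704 to 883 genes higher in transgenic libraries, with 704 without transgenic replicate 2 and 721 without transgenic replicate 3 against 1100 with all 6, and 1231 to 1373 genes lower; the lists held 8 to 9 genes higher and 24 to 27 lower. With no filter on low values 7 genes of the lists were higher, where more genes were tested; with upper quartile scaling the shares of higher calls were 52.0% against 39.8%. Of 586 values of the named genes of the lists, 519 kept their call, 61 lost it and 6 changed sign, all of genes that were not called: with upper quartile scaling Got1 (0.0026), Oaz1 (0.00095) and Oat (0.030), and Oat with median ratio scaling (0.011), and, with each library left out in turn, Oat from −0.025 to 0.022, above 0 without wild type replicate 3 (0.022) or transgenic replicate 3 (0.00015). The causes of these changes were not tested.

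Same-numbered libraries of the groups did not deviate together (r of 0.028, 0.011 and 0.003 over 8810 genes), nor did every library correlate best with its own number. With the replicate number as a block, 922 genes were higher and 1457 lower in the whole table and 10 and 28 in the lists; of the 10 genes, the call of Slc7a1 was lost. Depth limits Slc7a2 most, with 232 reads over the transgenic libraries. The 3 libraries a group limit precision throughout.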
